A study of Mus musculus with 12 samples.

Results

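The comparison described here is the genotype difference in peritoneal macrophages that had not met antibody-coated platelets. It rests on 6 of the 12 libraries of the series, 3 labelled Ern1fl/fl (WT below) and 3 labelled Mac-Ern1KO (KO below), all with the treatment given as Con, and it covers every gene in the table. All mice are labelled 8-week-old males and received 3% Brewer thioglycolate into the peritoneum 3 days before the harvest, a sterile irritant that draws monocytes and other leukocytes into the cavity. Both groups carry the floxed Ern1 allele. The labels do not name the Cre driver, do not say whether the unstimulated cells stood with uncoated platelets or with none, and do not say whether a library pools mice. The other 6 libraries, whose cells spent 2 h with platelets coated by the antibody R300, are used only for values set beside those of the unstimulated cells.

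Ern1 encodes IRE1α, a kinase and ribonuclease in the membrane of the endoplasmic reticulum (ER) and the most conserved sensor of the unfolded protein response. When unfolded protein builds up, IRE1α excises an intron from Xbp1 mRNA, and the spliced message is translated into XBP1s, a transcription factor for ER chaperones, translocon and glycosylation subunits and the machinery of ER-associated degradation. The same nuclease cleaves other mRNAs, a process called regulated IRE1-dependent decay (RIDD). In macrophages the pathway is also known for its links with Toll-like receptor signalling and cytokine production.

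The 6 libraries held 21765586 to 44273655 counts and differed in make-up within each genotype. The replicate number ordered the libraries more than the genotype did. Deviations from the group means over all tested genes correlated at 0.540, 0.559 and 0.592 between WT and KO libraries with the same number, and at -0.385 to -0.170 between libraries with different numbers. The deviations cancel out within each group, so the negative values largely follow from the positive ones. The first 2 principal components, with 38.5% and 33.3% of the variance, set the numbers apart. The labels do not say what a number marks. Although all mice are labelled male, Xist, the RNA that coats the inactive X chromosome of female cells, stood at 149.6, 438.8 and 0.0760 CPM (counts scaled to the normalised total of the library) in WT 1 to 3 and at 603.8, 470.6 and 0 CPM in KO 1 to 3. Taking Y-linked transcripts in the replicate 3 libraries as the level of male cells, the share of cells without a Y was 29.2% in WT 1 and 79.5% in KO 1, 66.8% in WT 2 and 65.9% in KO 2, and -2.26% and 2.26% in WT 3 and KO 3. Sex composition was therefore close between genotypes for numbers 2 and 3 and unequal for number 1. The macrophage identity genes Adgre1 (F4/80) and Csf1r were high in every library, Adgre1 at 614, 714 and 640 CPM in WT and 592, 716 and 610 CPM in KO.

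**Figure D1:**
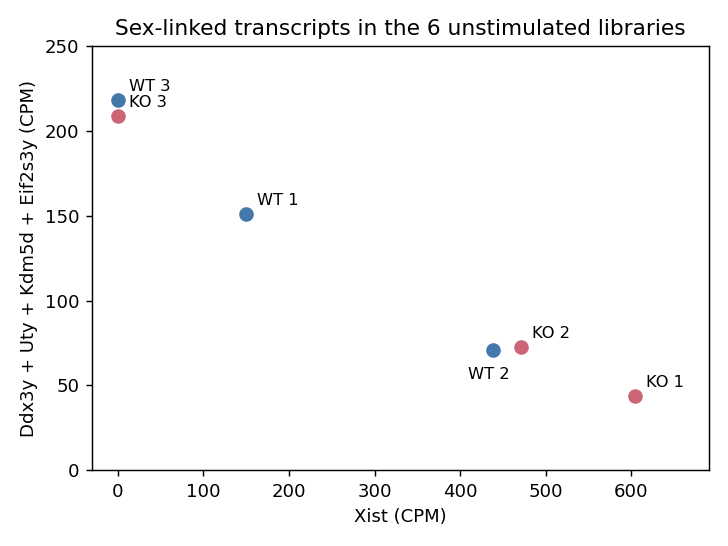
Xist (horizontal axis, CPM) against the sum of the Y-linked genes Ddx3y, Uty, Kdm5d and Eif2s3y (vertical axis, CPM) in each of the 6 unstimulated libraries, WT in blue and KO in red. WT 3 and KO 3 hold almost no Xist and over 208 CPM of Y-linked transcripts, WT 2 and KO 2 lie together, and WT 1 and KO 1 lie apart.

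The targeted gene was not lower in KO. Ern1 (chromosome 11, 106394650 to 106487852, GRCm38) stood at 114.3, 119.1 and 96.5 CPM in WT 1 to 3 and at 153.2, 157.8 and 117.7 CPM in KO 1 to 3. The KO level was the higher in each of the 3 same-numbered pairs, but KO 3 lay below WT 2, so the groups overlapped. The difference, given throughout as log2 of KO over WT, was 0.38 (SE 0.15). The table has 1 value per gene and none per exon. Loss of the floxed exon cannot be read from it, and the Ern1 level therefore checks neither the deletion nor the labels. Xbp1 (chromosome 11, 5520659 to 5525893), the main substrate of IRE1α, stood at 134.3, 113.1 and 126.4 CPM in WT and 126.2, 111.8 and 101.1 CPM in KO (log2 -0.14, SE 0.13). Its groups overlapped as well, and counts per gene do not tell the spliced form from the unspliced one. Nr1d1, the circadian repressor REV-ERBα that the title of the series names as a target of IRE1α-dependent decay, lies on chromosome 11 at 98767932 to 98775333. It stood at 9.59, 11.1 and 7.49 CPM in WT and 11.5, 11.3 and 8.75 CPM in KO, a log2 difference of 0.16 (SE 0.21) with overlapping groups. In the R300 libraries the corresponding difference was 0.72 (SE 0.19), at 7.15, 5.03 and 6.34 CPM in WT and 11.1, 11.0 and 8.41 CPM in KO. Some R300 libraries were nearly alike, as given below, so that SE may be too small. The test of whether the difference depended on platelets (the interaction term) gave a log2 value of 0.57. Its p in edgeR was 0.0739 unadjusted and 1.00 adjusted.

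Across the transcriptome no gene passed edgeR's quasi-likelihood test at a Benjamini-Hochberg adjusted p under 0.05 in the 6 libraries. The lowest adjusted p among 15809 genes was 1.00. No overlap between the 3 WT and the 3 KO libraries was found for 549 genes (3.47%), with KO above WT for 252 (1.59%) and below for 297 (1.88%). An unadjusted p under 0.05 was found for 107 genes, 0.677% of those tested, of which 40 were higher in KO (0.253%) and 67 lower (0.424%). The libraries of a genotype differed from one another by a biological coefficient of variation of 0.277. When the replicate number was added as a block this fell to 0.140, and 677 genes had an unadjusted p under 0.05 (4.28%), 335 higher (2.12%) and 342 lower (2.16%). The lowest adjusted p of edgeR was then 0.345, and again none passed. DESeq2 called 1 gene without the block, Lyz2 (0.00334% of 29935). With the block it called 34 genes (0.219% of the 15557 genes that received an adjusted p), 22 higher in KO (0.141%) and 12 lower (0.0771%). That last setting was chosen after the values were seen. The genes it called are described below by their levels, and none of them passed in edgeR. In simulated counts for the same 6 libraries the edgeR test called none of 67 genes changed 1.5-fold, 35.8% of 67 changed 2-fold and 84.8% of 66 changed 4-fold. The simulated libraries were drawn independently, without a shared effect of the replicate number, and only genes above a minimum level were changed. These rates need not hold for the real libraries.

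Lyz2 was the gene that DESeq2 called both with and without the block. It encodes lysozyme M, a bactericidal enzyme made in large amounts by macrophages, and lies on chromosome 10 at 117277331 to 117282321. It stood at 12790, 13758 and 13171 CPM in WT 1 to 3 and at 7487, 6148 and 6896 CPM in KO 1 to 3. The groups were far apart, 13239 ± 488 CPM against 6844 ± 671 CPM (SD, n = 3 each), and the KO mean was 51.7% of the WT level by the fit (log2 -0.95, SE 0.17). The difference was -0.93 between the replicate 3 libraries, which lack Xist, and -0.96 among the other 4. DESeq2 gave an adjusted p of 1.44e-05 without the block and 9.85e-11 with it, whereas edgeR gave 1.00. In R300 cells Lyz2 differed by -0.83. Lyz1, the neighbouring and closely related lysozyme gene to which reads could be assigned in error, stood at 117, 159 and 104 CPM in WT and 122, 98.9 and 74.4 CPM in KO. These groups overlapped. Lyz2 is also the locus that carries Cre in a strain widely used for deletion in myeloid cells. As the labels name no driver, whether that allele was present was not tested. Of 51 tested genes within 5 Mb of Lyz2, 0 had an unadjusted p under 0.05 in edgeR without the block, and 5 (9.8%) with it. Around Ern1 the counts were 0 of 111 and 3 (2.7%). Over all genes the shares were 0.677% and 4.28%. The windows were chosen after the values were seen.

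Eps8l1 showed the largest difference among the 10 lower genes that the naming rule selected, those with the lowest p and no overlap between the groups. Eps8l1 encodes a relative of EPS8, an adaptor that links receptor signalling to actin, and lies on chromosome 7 at 4460674 to 4480487. It stood at 10.1, 12.0 and 9.31 CPM in WT and at 2.08, 4.50 and 1.06 CPM in KO, so every KO library lay below every WT library. KO reached 24.4% of the WT level (log2 -2.03, SE 0.49), and in R300 cells the difference was -2.11. DESeq2 with the block gave an adjusted p of 1.85e-07. The lowest KO value was in the pair without Xist, where the difference was -3.07, against -1.74 among the other 4 libraries.

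**Figure D2:**
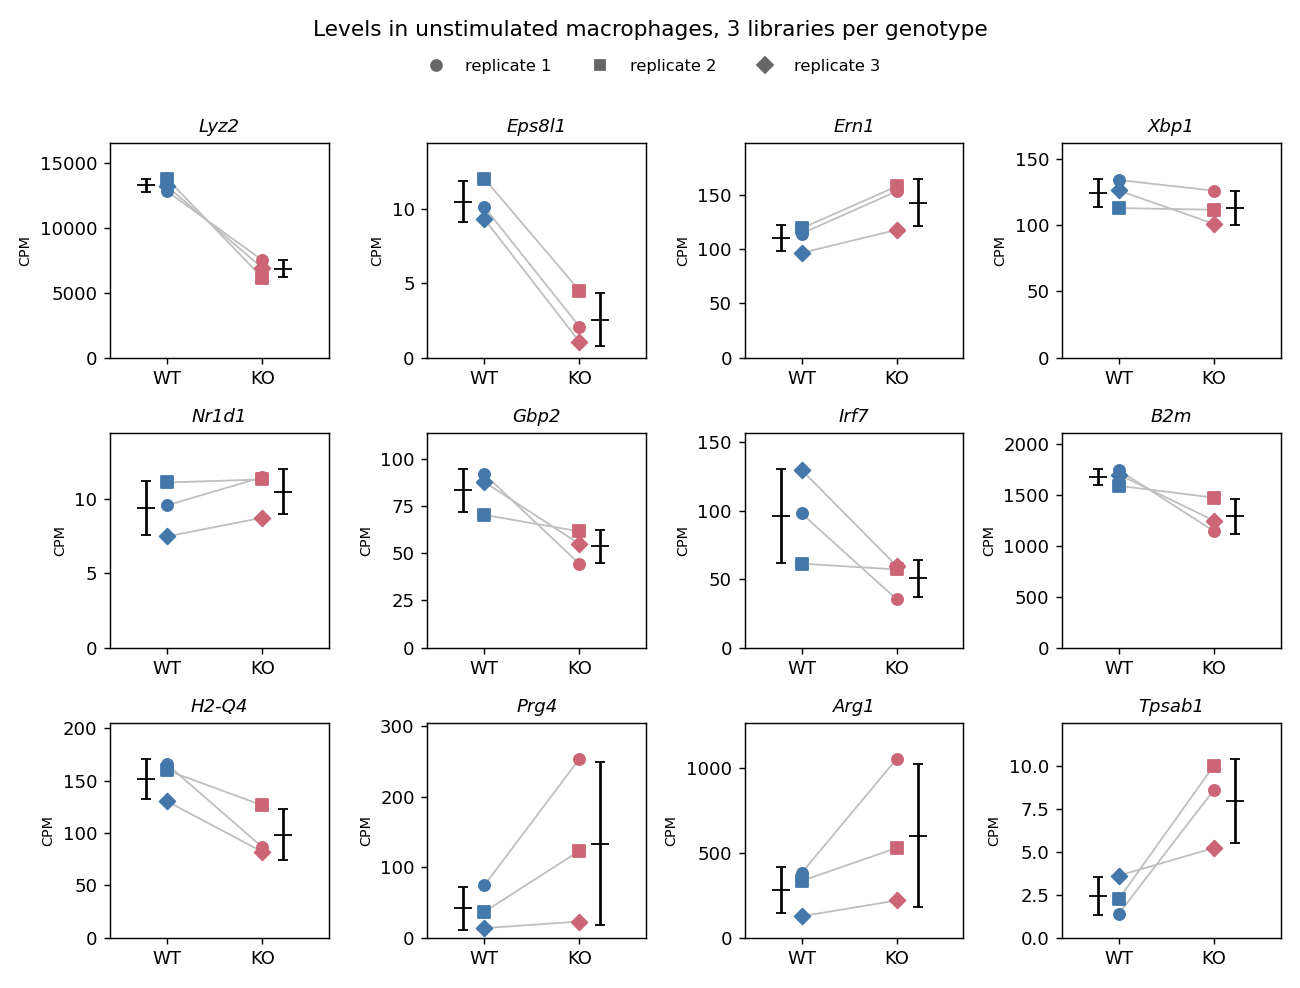
Levels in CPM (vertical axes, from 0) of 12 genes in WT and KO libraries; marker shape gives the replicate number, grey lines join libraries with the same number, and the black bar beside each group is the mean with its SD. Lyz2, Eps8l1, Gbp2, Irf7, B2m and H2-Q4 show KO libraries below all WT libraries, Tpsab1 shows them above, and Ern1, Xbp1, Nr1d1, Prg4 and Arg1 overlap.

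Genes induced by interferon all had lower fitted levels in KO. Interferons are cytokines released on infection, and the proteins they induce restrict viruses and intracellular bacteria. Of 59 tested members of a list of 61, all 59 had a negative difference, where 49.4% of all genes did, and their median was -0.64 against 0.00 over all genes tested. None passed in edgeR, where 11 had an unadjusted p under 0.05 in the lower direction, against 0.424% of all genes. The KO libraries lay below all WT libraries for 9 members, 15.3%, against 1.88% of all genes. With the block, 30 of 59 had an unadjusted p under 0.05 in the lower direction in edgeR and 0 in the other, against 2.16% and 2.12% of all genes. DESeq2 with the block called 5 lower, namely Ifit3, Ifi213, Gbp3, Irf7 and Oas3, against 0.0771% of all genes. Reads from a bulk sample cannot tell fewer cells of a type from less RNA per cell, and this applies to all lists below.

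The shift in interferon-induced genes was present in pairs 1 and 3 and not in pair 2. The median of the 59 was -0.95 in pair 1, with 59 negative, and -0.93 in pair 3, with 57 negative. In pair 2 the median was 0.06, with 27 negative and 32 positive. The summed level of the list was 3572, 2875 and 5255 CPM in WT 1 to 3 and 1990, 3095 and 2842 CPM in KO 1 to 3. WT 2 was the lowest of the WT libraries, whereas KO 2 was the highest of the KO libraries. Sex composition was unequal in pair 1 and close in pairs 2 and 3, and its part in these differences was not tested. Without WT 3 the median was -0.33, the weakest value of any library left out, and without WT 2 it was -0.78. In R300 cells all 59 members were negative, with a median of -0.89, where 52.7% of all genes were. In Xist and Prg4 the R300 libraries resembled replicates 1 and 3, the pairs with the shift, and none resembled replicate 2. They may therefore not be independent of the unstimulated libraries, which applies to every R300 value given here. R300 WT 1 and 3, and R300 KO 1 and 2, were nearly alike (median chi-square per gene 1.37 and 1.53, against 6.14 to 10.6 among unstimulated libraries of a group), so those groups may hold fewer than 3 independent samples.

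**Figure D3:**
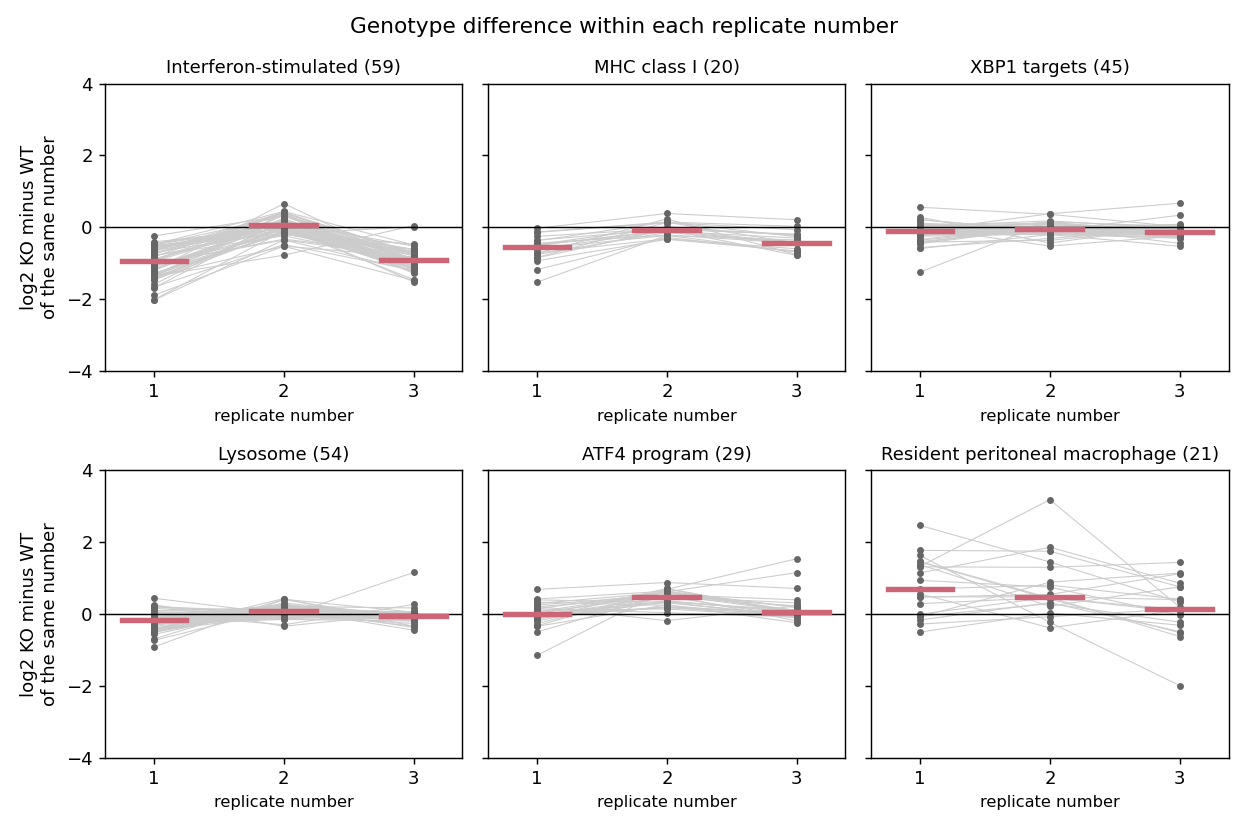
Difference of each member (grey dots and lines, log2 of KO over WT with 0.1 CPM added to each level) within each replicate number for 6 gene lists, with the median as a red bar and the number of tested members in parentheses. Interferon-stimulated genes and, less steeply, MHC class I genes are negative for numbers 1 and 3 and near 0 for number 2, and the ATF4 program is raised for number 2.

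Guanylate-binding proteins, large GTPases that attack the vacuoles of intracellular pathogens, provided 3 of the 10 lower genes of the naming rule. Gbp2 (chromosome 3, 142620602 to 142638008) stood at 92.1, 70.4 and 87.8 CPM in WT and 44.4, 61.7 and 55.0 CPM in KO (log2 -0.64, SE 0.16). Gbp3 (chromosome 3, 142560026 to 142573209) stood at 36.3, 37.5 and 44.5 CPM against 17.9, 29.7 and 26.2 CPM (log2 -0.68, SE 0.20). For both genes KO 2 was the highest KO library, and both groups stood clear of each other. Gbp10 differed by -1.43 (SE 0.43) at about 1.06 CPM in WT. Family members are similar in sequence, so reads may be split between them. Ifi213, a member of the PYHIN family of DNA sensors, had the largest negative difference in the list, at 12.1, 9.70 and 23.1 CPM in WT and 4.59, 6.68 and 8.19 CPM in KO (log2 -1.20, SE 0.37). It also has close relatives nearby on chromosome 1. Irf7, the master regulator of type I interferon induction, stood at 98.0, 61.3 and 130 CPM in WT and 35.3, 57.1 and 59.6 CPM in KO (log2 -0.93, SE 0.31). Its groups did not overlap, but WT 2 and KO 3 differed by little.

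Most other members that are named here overlapped between the groups. Ifit3, which binds viral RNA complexes, stood at 22.1, 17.4 and 54.8 CPM in WT against 6.88, 12.4 and 23.8 CPM in KO (log2 -1.13, SE 0.56). Oas3, a sensor of double-stranded RNA, stood at 67.7, 22.6 and 112 CPM against 27.3, 22.1 and 40.5 CPM (log2 -1.17, SE 0.53). In both genes WT 3 was the highest of the 6 libraries. The ubiquitin-like modifier Isg15 differed by -0.58 (SE 0.29), with overlap. Ly6e, a surface protein that restricts viral entry, stood at 295, 275 and 251 CPM against 200, 244 and 181 CPM without overlap (log2 -0.39, SE 0.15). The chemokine Cxcl10 ranged from 32.0 to 91.4 CPM in WT and from 15.5 to 82.8 CPM in KO. It followed the replicate number, being lower in KO in all 3 pairs (log2 -0.37, SE 0.60).

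Promoter sequences were searched for the core of the interferon-stimulated response element, spelled GAAA, any 2 bases, GAAA and read on both strands, in the 300 bases from 250 before to 50 after the start of transcription (RefSeq, GRCm38.p6). Counted by gene, at any listed start, the core occurred in 30 of 46 interferon-list genes (65.2%) and in 3.91% of 10617 tested genes. Of the MHC class I genes with a listed promoter, 4 of 17 held it (23.5%). Counted by single promoter, 3.44% of all 32851 held it. A match describes letters only and is no evidence that a factor binds there. The promoters of Gbp2 (chr3:142620413-142620712, plus strand), Gbp3 (chr3:142559794-142560093, plus strand, 1 of 2 listed starts), Ifi213 (chr1:173599223-173599522, minus strand) and B2m (chr2:122147437-122147736, plus strand) are shown because their groups did not overlap and their promoters hold the core. Ifi213, Gbp2 and Gbp3 stand for the interferon list, and B2m, whose difference lay near the median of its list, for MHC class I. Each is written 5′ to 3′ on the strand of its gene, with the match in capitals; Gbp3 holds 2 matches that overlap.
Gbp2: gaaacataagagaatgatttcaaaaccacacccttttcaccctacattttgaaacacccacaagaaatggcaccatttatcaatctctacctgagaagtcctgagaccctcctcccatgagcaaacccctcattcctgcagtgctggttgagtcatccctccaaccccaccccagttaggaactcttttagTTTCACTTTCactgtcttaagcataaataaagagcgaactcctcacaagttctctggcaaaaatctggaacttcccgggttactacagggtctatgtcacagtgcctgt
Gbp3: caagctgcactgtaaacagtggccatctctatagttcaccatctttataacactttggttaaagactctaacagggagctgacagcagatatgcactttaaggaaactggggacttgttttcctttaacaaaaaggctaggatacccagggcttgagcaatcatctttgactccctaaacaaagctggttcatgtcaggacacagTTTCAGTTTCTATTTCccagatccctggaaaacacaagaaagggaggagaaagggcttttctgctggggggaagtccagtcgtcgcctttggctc
Ifi213: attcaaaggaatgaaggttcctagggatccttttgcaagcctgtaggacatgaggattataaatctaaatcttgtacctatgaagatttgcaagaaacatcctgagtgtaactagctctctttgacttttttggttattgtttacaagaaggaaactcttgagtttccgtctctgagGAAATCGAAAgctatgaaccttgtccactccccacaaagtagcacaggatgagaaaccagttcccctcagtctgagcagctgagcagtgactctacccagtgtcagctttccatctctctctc
B2m: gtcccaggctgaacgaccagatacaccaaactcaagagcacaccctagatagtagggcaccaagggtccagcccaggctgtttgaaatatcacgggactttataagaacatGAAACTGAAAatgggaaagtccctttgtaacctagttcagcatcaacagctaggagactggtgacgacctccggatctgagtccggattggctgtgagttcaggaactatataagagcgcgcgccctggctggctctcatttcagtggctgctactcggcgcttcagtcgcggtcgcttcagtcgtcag
The matches begin 59, 45, 73 and 139 bases before the start, respectively. In Gbp2 and Gbp3 the core lies on the opposite strand, so it appears as its reverse complement.

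Genes of MHC class I presentation, which load cytosolic peptides onto surface molecules for CD8 T cells, were shifted the same way. Of 20 tested members 18 had a negative difference, with a median of -0.37. The exceptions were the chaperones Calr (0.20) and Pdia3 (0.02), which also serve glycoprotein folding in general. The KO libraries lay below all WT libraries for 6 members, 30.0%, against 1.88% of all genes. In all 3 same-numbered pairs 13 of 20 were lower, 65.0%, against 12.8% of all genes. An unadjusted p under 0.05 was found in edgeR for 6 members without the block and 12 with it, all lower. Over all genes 0.424% and 2.16% were lower at that threshold. By pair the medians were -0.55, -0.07 and -0.43. No gene is in both this list and the interferon list. In R300 cells 19 of 20 were negative (median -0.51).

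B2m, the invariant light chain, stood at 1744, 1590 and 1701 CPM in WT and 1144, 1473 and 1248 CPM in KO, without overlap (log2 -0.38, SE 0.15). The classical heavy chain H2-K1 stood at 1797, 1680 and 1456 CPM against 1183, 1435 and 1138 CPM (log2 -0.39, SE 0.16). H2-D1, the other classical heavy chain, differed by -0.30 (SE 0.15) with all KO libraries below WT. Of the nonclassical genes, H2-Q4 stood at 166, 160 and 130 CPM against 86.6, 127 and 82.2 CPM (log2 -0.63, SE 0.19). H2-T22 stood at 70.8, 52.9 and 80.1 CPM against 43.1, 42.2 and 52.7 CPM (log2 -0.56, SE 0.18). H2-M3, which presents formylated bacterial peptides, varied little within a genotype, at 32.0, 28.8 and 31.2 CPM against 23.5, 24.8 and 22.9 CPM (log2 -0.37, SE 0.11). H2-Q4, H2-Q6 and H2-T22 were called by DESeq2 with the block (adjusted p 0.00883, 0.0310 and 0.0327), as was H2-Q5, which is not in the list (0.000884). Over all genes that setting called 0.0771% lower. These class I genes share long stretches of sequence, so the split of reads between them is uncertain. The peptide transporter Tap1 stood at 119, 70.5 and 136 CPM in WT and 66.0, 67.3 and 78.7 CPM in KO (log2 -0.62, SE 0.24). WT 2 again lay near the KO libraries. The class I transactivator Nlrc5 differed by -0.45 (SE 0.26) with overlap. MHC class II genes had a median of -0.06 over 14 members, 8 of them negative, and their regulator Ciita differed by -0.01 (SE 0.21). With the block 2 of the 14 were higher at an unadjusted p under 0.05 in edgeR, against 2.12% of all genes, and without it 0.

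The targets of XBP1s showed smaller differences of one prevailing sign. Of 45 tested, 34 were negative, with a median of -0.10. None passed in edgeR or in DESeq2 with the block. The KO libraries lay below all WT libraries for 8 members, 17.8%, against 1.88% of all genes. In all 3 pairs 21 were lower, 46.7%, against 12.8% of all genes, while 1 was higher, Herpud1. An unadjusted p under 0.05 was found in edgeR for 0 members without the block, and for 9 lower and 1 higher with it. With the block the shares of all genes were 2.16% lower and 2.12% higher. The medians were -0.10, -0.05 and -0.14 in pairs 1 to 3, so the sign was the same in each, and leaving out any 1 library gave -0.13 to -0.08. In R300 cells 37 of 45 were negative (median -0.10). Spcs2, a subunit of the signal peptidase that trims proteins on entry into the ER, stood at 74.6, 81.1 and 87.8 CPM in WT and 64.4, 70.9 and 71.1 CPM in KO (log2 -0.24, SE 0.11). Ostc, a subunit of the oligosaccharyltransferase, stood at 34.8, 35.5 and 38.9 CPM against 29.2, 31.1 and 33.3 CPM (log2 -0.22, SE 0.11). Neither overlapped between the groups. Edem2, a mannosidase that marks glycoproteins for degradation, had the largest negative difference (log2 -0.47, SE 0.29), but its WT values ran from 52.8 CPM in WT 2 to 106 CPM in WT 3. The difference was -0.16 without WT 3. Dnajb9, a BiP co-chaperone and a standard readout of XBP1s, stood at 26.5, 41.2 and 41.8 CPM in WT and 19.2, 41.2 and 30.5 CPM in KO (log2 -0.27, SE 0.30). The groups overlapped and pair 2 did not differ. Sec61b, a translocon subunit, differed by -0.30 (SE 0.15).

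ER chaperones driven by ATF6, the sensor whose cleaved fragment is itself a transcription factor, overlapped with that list by 9 genes. Of 15 tested, 9 were negative (median -0.11). With the block 2 were lower and 1 higher at an unadjusted p under 0.05 in edgeR, and without it 0. With the block the shares of all genes were 2.16% and 2.12%. Dnajc3 (P58IPK), a co-chaperone that also restrains PERK, did not overlap between the groups, at 101, 109 and 111 CPM in WT and 94.6, 94.5 and 92.1 CPM in KO (log2 -0.19, SE 0.10). Every KO library lay below every WT library. Hspa5, the chaperone BiP, stood at 401, 467 and 423 CPM in WT and 360, 595 and 373 CPM in KO (log2 0.04, SE 0.21), with KO 2 the highest library of all. The ER stress response element was spelled CCAAT, any 9 bases, CCACG and read on both strands. Counted by gene, it occurred in 7 of 12 of the ATF6 list (58.3%) and in 4 of 34 of the XBP1 list (11.8%). The share was 0.179% of tested genes, and 0.119% of all single promoters of the same length. The Dnajc3 promoter (chr14:118937682-118937981, plus strand, RefSeq, GRCm38.p6) is shown because the gene is in both lists and its groups did not overlap, with the element in capitals, beginning 105 bases before the start.
Dnajc3: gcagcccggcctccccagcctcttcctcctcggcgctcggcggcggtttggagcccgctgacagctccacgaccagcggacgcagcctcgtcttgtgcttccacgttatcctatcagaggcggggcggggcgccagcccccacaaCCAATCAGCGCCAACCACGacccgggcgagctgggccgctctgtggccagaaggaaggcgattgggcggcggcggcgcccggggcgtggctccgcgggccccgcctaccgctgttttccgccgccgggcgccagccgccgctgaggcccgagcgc

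Reported substrates of IRE1-dependent decay had differences of both signs. Of 20 tested, 14 were positive, with a median of 0.09, but the pair medians were -0.10, -0.02 and 0.04. Without WT 2 the median was 0.014, and 3 members were higher and 3 lower in all 3 pairs. With the block 2 members had an unadjusted p under 0.05 in edgeR, both lower, against 2.16% of all genes, and without it 0. In R300 cells 10 of 20 were positive (median -0.0039). Bloc1s1, the most widely used substrate, was near its detection limit at 0.350, 0.477 and 0.494 CPM in WT and 0.275, 0.399 and 0.500 CPM in KO (log2 -0.17, SE 0.40). Sparc, a matrix protein of fibroblasts and mesothelium, stood at 110, 26.9 and 30.3 CPM in WT and 76.3, 60.9 and 67.3 CPM in KO (log2 0.29, SE 0.52). Tapbp, the class I loading factor tapasin, was lower in KO in all 3 pairs, at 372, 265 and 417 CPM against 262, 250 and 311 CPM (log2 -0.35, SE 0.19).

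The ATF4 program, the amino acid and stress genes downstream of PERK and other eIF2α kinases, was positive in 27 of 29 tested members (median 0.17) against 50.6% of all genes. The shift lay in pair 2, with medians of -0.01, 0.48 and 0.05 in pairs 1 to 3. Without KO 2 the median was -0.08. With the block 6 members had an unadjusted p under 0.05 in edgeR, all higher, against 2.12% of all genes, and without it 0. Slc7a5, a transporter of large amino acids, stood at 89.2, 125 and 78.9 CPM in WT and 109, 190 and 90.0 CPM in KO (log2 0.41, SE 0.30). Chac1, a glutathione-degrading enzyme, stood at 3.94, 9.48 and 2.17 CPM against 6.39, 17.5 and 3.61 CPM (log2 0.81, SE 0.70). Both were higher in KO in all 3 pairs, and both were highest in the replicate 2 libraries of each genotype. Atf4 itself and Ddit3 (CHOP) differed by 0.10 (SE 0.26) and 0.08 (SE 0.38). In R300 cells, whose libraries resembled replicates 1 and 3 in Xist and Prg4, 13 of 29 were positive (median -0.02).

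**Figure D4:**
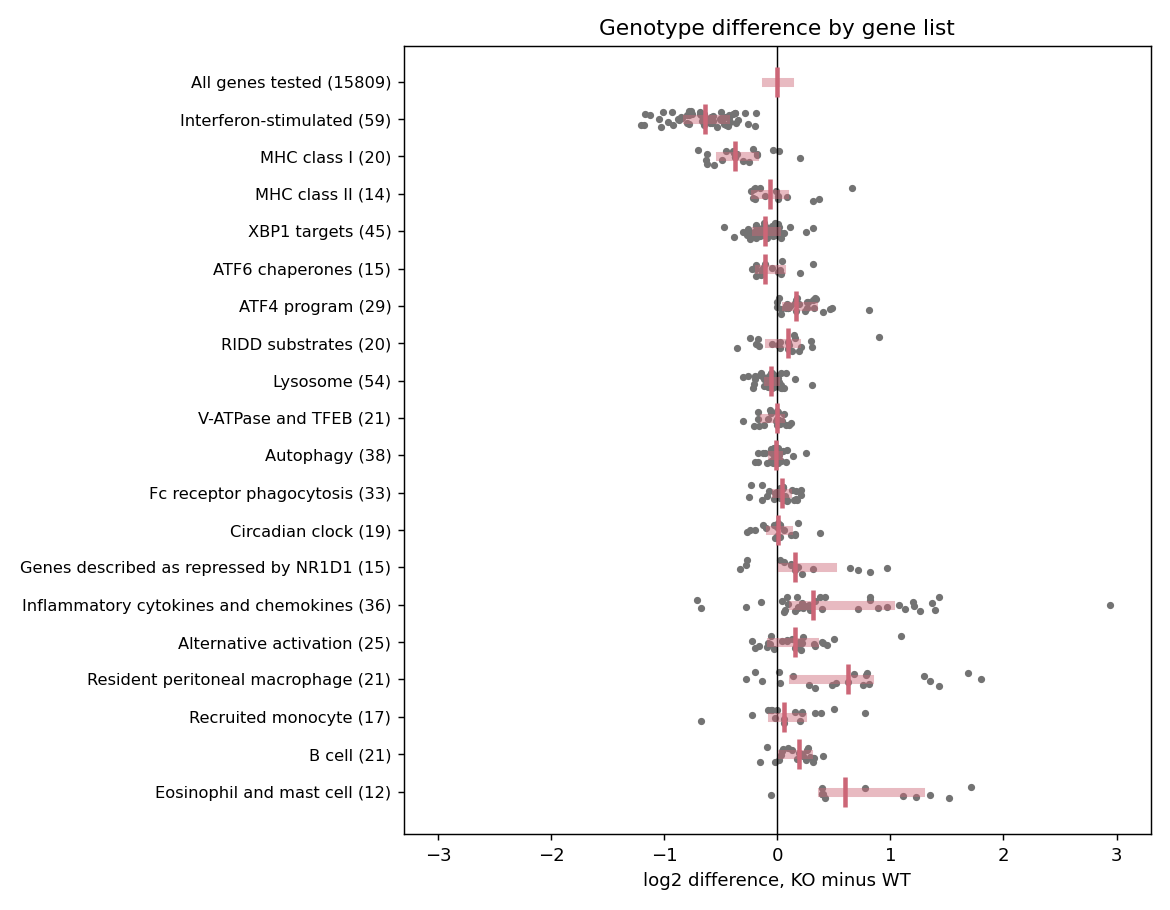
Differences (log2 of KO over WT, horizontal axis) of the members of 19 gene lists, with the number tested in parentheses; grey dots are genes, the red tick is the median and the pale bar the middle 50%, and the top line gives all 15809 genes without dots. All 59 interferon-stimulated genes lie left of 0, while lysosomal, autophagy, Fc receptor and clock genes are centred near 0.

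Lysosomal, uptake and clock genes, which include the processes named in the title of the series, had medians near 0 without platelets. Of 54 lysosomal genes 41 were negative, but the median was -0.06 and its sign varied between pairs (-0.17, 0.07 and -0.06). Without WT 3 it was 0.05 and without KO 1 it was 0.02. The membrane protein Lamp1 stood at 1916, 1694 and 2433 CPM in WT and 1701, 1848 and 2233 CPM in KO (log2 -0.06, SE 0.19). The proteases Ctsd and Ctsb differed by -0.07 (SE 0.27) and -0.12 (SE 0.27). Npc2, which hands cholesterol to NPC1, stood at 917, 836 and 1193 CPM against 663, 815 and 992 CPM (log2 -0.25, SE 0.21), lower in each pair but with overlap. Tfeb, the transcription factor for lysosomal genes, differed by -0.17 (SE 0.31). The medians of 21 genes of the proton pump and TFEB family, 38 autophagy genes, 33 genes of Fc receptor phagocytosis and 19 clock genes were -0.01, -0.01, 0.04 and 0.00. In edgeR 0 of these and of the lysosomal genes had an unadjusted p under 0.05, where 0.677% of all genes did, so that a count of 0 says little in lists of this size. With the block 1 autophagy gene, Atg13, and 1 clock gene, Per1, had one, both lower, against 4.28% of all genes. In R300 cells 41 of the 54 lysosomal genes were negative (median -0.12).

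Of 26 scavenger and apoptotic cell receptor genes 16 were positive (median 0.04), with 5 higher and 3 lower in all 3 pairs. Pros1, protein S, a bridge between apoptotic cells and their receptors, was higher in all 3 pairs with overlap (log2 0.22, SE 0.18). Axl, which takes up apoptotic cells through GAS6, stood at 187, 177 and 174 CPM in WT and 164, 135 and 142 CPM in KO without overlap (log2 -0.29, SE 0.12). The Fc receptors Fcgr1, Fcgr3 and Fcgr4 differed by -0.25 (SE 0.32), -0.08 (SE 0.16) and -0.23 (SE 0.31), and the shared signalling chain Fcer1g by 0.05 (SE 0.14). All 4 overlapped. Of 15 genes described as repressed by NR1D1, 12 were positive (median 0.15), but the median was -0.13 without KO 2 and 0.46 without WT 2. In pair 3 it was 0.03, with 7 negative and 8 positive. With the block 2 were higher and 1 lower at an unadjusted p under 0.05 in edgeR, and without it 0. With the block the shares of all genes were 2.12% and 2.16%. The list holds the monocyte chemokine Ccl2 at 24.4, 12.7 and 9.24 CPM in WT and 24.7, 51.7 and 14.0 CPM in KO (log2 0.97, SE 0.53). KO 2 stood above the rest.

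Genes of resident peritoneal macrophages, the long-lived GATA6-dependent cells of the cavity that thioglycolate largely displaces, had mostly positive differences. Of 21 tested, 18 were positive, with a median of 0.62 (0.69, 0.46 and 0.14 in pairs 1 to 3), and 11 were higher in all 3 pairs, 52.4%, against 11.7% of all genes. None passed in edgeR, where an unadjusted p under 0.05 was found for 0 members without the block and for 11 higher with it. Over all genes 0.253% and 2.12% were higher at that threshold. DESeq2 with the block called 4, Prg4, Selp, Alox15 and Vsig4, against 0.141% of all genes called higher. Leaving out KO 1 lowered the median to 0.30 and leaving out WT 3 to 0.31. It was 0.76 among the libraries with Xist and 0.14 between the replicate 3 libraries, which lack Xist. Over all alternatives, which included a Y-linked covariate and an Xist term, the median ranged from 0.12 to 0.89. The difference of Prg4 ranged from 0.29 to 2.41, and was at least 0.82 with 1 library left out. Sex composition was unequal in pair 1, and whether it accounts for these differences was not tested.

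Prg4, the lubricant proteoglycan 4, stood at 74.3, 36.6 and 13.5 CPM in WT and 254, 123 and 22.9 CPM in KO (log2 1.69, SE 0.87). Alox15, a lipoxygenase of resident macrophages and eosinophils, stood at 5.08, 8.05 and 2.05 CPM against 28.5, 22.1 and 2.61 CPM (log2 1.80, SE 0.83). Selp stood at 5.52, 3.02 and 1.06 CPM against 13.9, 7.57 and 3.05 CPM (log2 1.35, SE 0.69); it encodes P-selectin, an adhesion receptor also found on platelets. In all of these the replicate 3 libraries were lowest in both genotypes and the groups overlapped. Vsig4, a complement receptor, stood at 4.34, 1.30 and 1.60 CPM against 9.70, 4.97 and 2.97 CPM (log2 1.30, SE 0.59). Other defining genes varied between pairs. Timd4, the phosphatidylserine receptor TIM4, was 12.7, 19.8 and 17.0 CPM in WT and 39.4, 16.8 and 4.19 CPM in KO (log2 0.28, SE 0.67), higher in KO in pair 1 and lower in pairs 2 and 3. Gata6 differed by 0.49 (SE 0.45). The summed level of the list was 1544 to 1900 CPM in WT and 1234 to 2523 CPM in KO. In R300 cells 16 of 21 were positive (median 0.58), against 47.3% of all genes.

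Alternative activation and inflammatory genes followed the replicate numbers. Arg1, the arginase of alternatively activated macrophages, stood at 381, 334 and 126 CPM in WT and 1054, 528 and 219 CPM in KO (log2 1.10, SE 0.60). It was higher in KO in all 3 pairs and in DESeq2 with the block had an adjusted p of 2.28e-05, but WT 1 and WT 2 lay above KO 3. Of the 25 tested genes of that list, 17 were positive (median 0.15, and -0.02 without KO 2). At an unadjusted p under 0.05 in edgeR, 5 were higher with the block, against 2.12% of all genes, and 0 without it. Inflammatory cytokines and chemokines were positive in 32 of 36 members (median 0.31), with medians of 0.02, 0.77 and -0.11 in pairs 1 to 3 and of -0.34 without KO 2. With the block 5 were higher and 1 lower at an unadjusted p under 0.05 in edgeR, and without it 0 and 1. The shares of all genes were 2.12% and 2.16% with the block, and 0.253% and 0.424% without it. Il1b stood at 46.6, 166 and 35.8 CPM in WT and 81.4, 281 and 43.9 CPM in KO (log2 0.71, SE 0.80). Cxcl1, a neutrophil attractant, stood at 19.3, 150 and 88.5 CPM against 49.4, 460 and 109 CPM (log2 1.26, SE 0.93). Replicate 2 was the highest of each genotype for both. Il12b, a subunit of interleukin-12 that was named after its values were seen, stood at 0.0438, 0.821 and 0.114 CPM against 0.367, 7.76 and 0.0833 CPM (log2 2.94, SE 1.596). KO 2 was the highest library by far, and KO 3 lay below WT 3. Ccl5, a T cell attractant that interferon also induces, went the other way, at 11.1, 12.4 and 10.5 CPM against 4.04, 9.17 and 7.55 CPM without overlap (log2 -0.71, SE 0.30). Serpinb2, the inhibitor PAI-2, differed by 1.12 (SE 0.77) and Thbs1, thrombospondin 1, by 0.81 (SE 0.36), each higher in KO in 3 of 3 pairs and each called by DESeq2 with the block (adjusted p 3.64e-05 and 0.00390).

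Markers of mast cells provided 3 of the 10 higher genes of the naming rule, all at low levels. The tryptase Tpsab1 stood at 1.40, 2.25 and 3.61 CPM in WT and 8.60, 10.0 and 5.22 CPM in KO (log2 1.71, SE 0.41). Tpsb2, a close relative with which it can share reads, stood at 2.10, 1.56 and 2.43 CPM against 3.86, 4.97 and 5.44 CPM (log2 1.23, SE 0.28). The chymase Mcpt4 stood at 0.744, 0.318 and 0.912 CPM against 1.35, 1.95 and 2.28 CPM (log2 1.52, SE 0.45). None of the 3 overlapped, nor did Cpa3, carboxypeptidase A3 (log2 1.35, SE 0.45). Tph1, the enzyme of serotonin synthesis in mast cells, was also among the 10, at 0.482, 0.397 and 0.760 CPM against 1.74, 2.06 and 1.17 CPM (log2 1.61, SE 0.40). Over the eosinophil and mast cell list, 11 of 12 tested members were positive (median 0.60, and 0.81, 0.69 and 0.50 in pairs 1 to 3). The KO libraries lay above all WT libraries for 4, 33.3%, against 1.59% of all genes. An unadjusted p under 0.05 in edgeR was found for 5 members without the block and 7 with it, all higher. Over all genes 0.253% and 2.12% were higher at that threshold. DESeq2 with the block called Tpsab1 and Tpsb2, against 0.141% of all genes called higher. In R300 cells 11 of 12 were positive (median 0.54). The median ranged from 0.03 without KO 2 to 1.12 without WT 2. The summed level of its 18 members was 22.4 to 64.5 CPM in WT and 40.9 to 104.9 CPM in KO, with Prg3 at 0 in all 6 libraries. The lineage genes Kit and Gata2 differed by 0.39 (SE 0.47) and -0.06 (SE 0.29), with overlap. The part of mast cell number in these differences was not tested.

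The remaining higher genes of the naming rule included Hdac9, a class IIa histone deacetylase, which was even within each genotype at 4.86, 5.19 and 5.82 CPM in WT and 8.48, 8.30 and 8.69 CPM in KO (log2 0.68, SE 0.18). In R300 cells it differed by 0.62. Rps27rt, a retrotransposed copy of a ribosomal protein gene, stood at 21.06, 22.97 and 23.001 CPM against 40.7, 42.0 and 29.0 CPM (log2 0.74, SE 0.16), but its reads cannot be told with certainty from those of its parent, and in R300 cells the difference was -0.02. Amigo2, Ggact, Galnt12 and Dync2li1 were all under 2 CPM in every library and differed by 1.22, 1.54, 1.16 and 1.03. In R300 cells these 4 differed by 0.22, -0.03, -0.08 and 0.04. The remaining lower genes were AW112010, an RNA induced in activated immune cells (log2 -0.61, SE 0.19), and Psme2b, a retrogene of a proteasome activator subunit (log2 -0.41, SE 0.13).

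Markers of other cells varied with the library. Summed B cell markers ran from 326 to 621 CPM in WT and 401 to 589 CPM in KO, T and NK cell markers from 267 to 531 CPM and 178 to 441 CPM, neutrophil markers from 220 to 489 CPM and 265 to 490 CPM, and mesothelial and fibroblast markers from 183 to 772 CPM and 415 to 554 CPM. All of these ranges overlapped between genotypes. Their part in the differences above was not tested. The genotype difference was not found to depend on platelets for any gene: of 16546 genes, 0 passed the interaction test in edgeR and 95 had an unadjusted p under 0.05. In R300 cells alone 0 of 15597 genes passed and 439 had an unadjusted p under 0.05.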

How the data were processed

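Poly(A) RNA of peritoneal macrophages was sequenced. Reads were handled with featureCounts 2.0.3, HISAT2 (listed with version 2), fastp 0.23.4 and FastQC 0.12.1, with mm10 as the build and DESeq2 1.42.0 also listed, per the submitters' processing notes; how strands, overlapping genes and multiply mapped reads were counted is not given in the sources used here. The library kit named in the labels does not mark strand. The deposited file gives raw counts by symbol for 35050 entries in 12 libraries, identical to the 12 sample files. The 102 entries without a symbol held 0.0232% to 0.0328% of counts and were left out.

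Raw counts of the 6 unstimulated libraries were tested with edgeR 4.0.16 in R 4.3.3 (TMM, filterByExpr, robust quasi-likelihood fit), with Benjamini-Hochberg adjustment over 15809 genes and a threshold of 0.05. CPM are TMM-normalised. Nothing in the labels says what separates replicates, so p-values measure the spread between these libraries. With 3 against 3, an exact two-sided permutation test cannot go below 0.1, so none is given. Same-numbered libraries deviated together (every correlation over 0.1), so the numbers were taken to pair the libraries. Counts with the replicate block are printed where it moves a count of a list described in detail. Log2 differences with an SE are from the fit without the block, so the SE includes the spread between replicate numbers. For Arg1 the SE was 0.60 without the block and 0.17 with it, while for Tpsab1 it was 0.41 in both. Simulated counts for 15510 genes gave 6 false calls. Alternatives were DESeq2 1.42.0, other scalings, no filter, all 12 libraries, the replicate block, an Xist term, a Y-linked covariate, libraries with or without Xist, and each library left out.

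Named genes are Ern1, Xbp1, Nr1d1, Lyz2 and sex-linked genes, the 10 of lowest p in each direction with no overlap, a mean count of at least 20 with clone names left out, and the 1 or 2 members of lowest p per list; others were chosen after their values were seen. The genes, lists and tests were chosen with earlier results of these data known, so lists are described and not tested. Positions are from GENCODE M21 (15282 of 15809 genes matched, 96.7%), and promoters from RefSeq.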

Additional observations from a re-analysis of the deposited data

How the results depend on the processing

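No alternative in edgeR called a gene. DESeq2 called 1 gene lower, Lyz2, and DESeq2 with the replicate block, chosen after seeing the data, called 22 higher and 12 lower. In edgeR the replicate block called 0 genes higher and 0 lower, with 677 at an unadjusted p under 0.05 in place of 107. That number ran from 79 in the 4 libraries with Xist to 473 without WT 1, where 396 were higher. Of 46 genes followed, 43 had the same sign in every alternative. The exceptions reversed without KO replicate 2. With 1 library left out they ranged from -0.40 to 1.72 (Il1b), from -0.12 to 1.95 (Cxcl1) and from -0.065 to 1.59 (Chac1), each highest without WT replicate 2. Of the 46, 21 passed in at least 1 alternative, all of them in DESeq2 with the block. Some of the 46 were named because their groups did not overlap, which leaves little room for a change of sign. These counts are therefore no measure of robustness. The median of the eosinophil and mast cell list ranged from 0.0297 to 1.12 when 1 library was left out, and that of B cell markers from -0.23 to 1.198. The interferon list stayed negative, from -0.93 to -0.33, as did MHC class I, from -0.43 to -0.26, and XBP1 targets, from -0.14 to -0.08. The comparison of the 2 libraries without Xist gives values with no test. The causes of these changes were not tested. Depth limits genes under about 1 CPM, and 3 libraries per genotype limit calls to large differences. In the simulation, which held no replicate effect, 0% of 1.5-fold changes were called.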

Other observations

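Other lists described few differences. Genes of oxidative phosphorylation encoded in the nucleus were positive in 33 of 41 (median 0.04), and mitochondrially encoded transcripts were negative in 15 of 15 (median -0.10). The latter rested on WT 2, whose summed level was 39130 CPM, against 20810 to 31960 CPM in the other 5 libraries, and the pair medians were 0.13, -0.51 and 0.17. In R300 cells 14 of 15 were positive. Cell cycle genes were positive in 30 of 38 (median 0.09) and in 7 of 38 in R300 cells. Of 25 macrophage identity genes 21 were negative (median -0.08), where 49.4% of all genes were. Itgam, the integrin subunit CD11b, had the largest positive difference of that list, against its prevailing sign. It stood at 318, 376 and 257 CPM in WT and 528, 412 and 307 CPM in KO (log2 0.39, SE 0.23), higher in KO in all 3 pairs. Padi4, which citrullinates histones and is highest in neutrophils, stood at 41.7, 60.0 and 16.1 CPM against 76.2, 76.6 and 26.1 CPM (log2 0.60, SE 0.54) and was called by DESeq2 with the replicate block (adjusted p 0.0216).

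Some calls of DESeq2 with the replicate block concern genes of uncertain counting or setting. Gm10705 stood at 4.42, 9.27 and 5.32 CPM in WT and 1.10, 2.51 and 1.78 CPM in KO, without overlap (log2 -1.82, SE 0.41), while in R300 cells the difference was 0.47. Vmn2r26, a vomeronasal receptor gene, stood at 0.788, 1.01 and 0.0760 CPM against 3.52, 3.33 and 0.416 CPM (log2 1.93, SE 0.94). Both were named after their values were seen.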
